A study of Caenorhabditis elegans with 2 samples.

Results

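The 31 protein-coding genes of Caenorhabditis elegans whose symbol starts with gcy- were taken from the 19973 nuclear protein-coding genes of the WBcel235 annotation. Membership followed from the symbol alone, and no binding value entered that rule. The gene family itself was chosen with earlier results of these data known. They encode 24 receptor-type guanylyl cyclases, which span the membrane, and 7 soluble guanylyl cyclases (gcy-31 to gcy-37). LSY-2 is a transcription factor with zinc fingers of the C2H2 type, and its binding was mapped by chromatin immunoprecipitation and sequencing (ChIP-seq) in whole L2 larvae of mixed sex. All animals were of strain OP367, which carries unc-119(tm4063) III and the integrated transgene wgIs367, from which LSY-2 tagged with GFP and FLAG at the C terminus is expressed. There was 1 group with 2 biological replicates and no other condition, so the comparisons were between genes, and no comparison between treatments or genotypes was possible. The chromatin came from whole animals, so each value joins every cell in which the transgene was active, and a missing summit gives no reading for any single neuron.

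Guanylyl cyclases make cyclic GMP, the second messenger that opens cyclic nucleotide-gated channels in many worm sensory neurons. Receptor-type members act in the sensing of salts, heat, odours and carbon dioxide, and soluble members bind heme and act in the sensing of oxygen. The ASE pair of taste neurons is known for left-right differences in these genes: gcy-6, gcy-7 and gcy-14 are used as markers of the left cell and gcy-5 and gcy-22 of the right cell. LSY-2 is known from genetic work for its part in that asymmetry, through the microRNA gene lsy-6. The zinc finger factor CHE-1, the selector of ASE identity, binds a motif with the core GAAGCC that is found in front of many ASE genes.

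A gene was counted when the summit of a peak lay in its promoter window, which reached 1000 bp upstream and 200 bp downstream from the annotated 5′ end. Sequences are printed for the summits of gcy-33 and gcy-11 and, for the ASE genes, for copies of the CHE-1 core in the window. The optimal promoter summit of gcy-28 is not printed, and it held none of the 4 motifs searched within 50 bp. All printed sequences are given on the strand of the gene, from WBcel235. The first is the stretch around the strongest promoter summit of any member, at chrV:12002066-12002266 (minus strand), with the bases of a transfer RNA gene in capitals.
gcy-33 summit: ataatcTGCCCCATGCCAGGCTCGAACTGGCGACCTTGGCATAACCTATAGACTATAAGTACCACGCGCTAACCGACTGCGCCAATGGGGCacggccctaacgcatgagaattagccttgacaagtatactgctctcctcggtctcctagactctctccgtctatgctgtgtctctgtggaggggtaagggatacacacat
The gcy-11 summits lay at chrX:17055698-17055798 and chrX:17056039-17056139 (minus strand). Capitals mark TCTCTC, the reverse complement of GAGAGA. This 6-mer was chosen with earlier results of these same peaks known, so its presence under these summits is a description and no independent support.
gcy-11 summit 1: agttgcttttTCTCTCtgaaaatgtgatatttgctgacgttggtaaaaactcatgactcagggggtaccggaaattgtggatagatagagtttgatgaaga
gcy-11 summit 2: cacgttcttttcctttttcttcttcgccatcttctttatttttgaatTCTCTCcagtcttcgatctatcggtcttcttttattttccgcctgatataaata
The ASE genes have their upstream copies of the core shown in capitals on either strand, at chrII:10316363-10316392 for gcy-5, chrV:10314205-10314234 for gcy-6 and chrV:20825144-20825173 for gcy-22 (minus strand for all), and the copy in gcy-7 at chrV:8387346-8387375 (plus strand) overlaps the start of the coding sequence.
gcy-5 GAAGCC: aacattaagcaaGAAGCCcccaaatgcgta
gcy-6 GAAGCC: gacttgttcgtcGAAGCCcttcaacaagtt
gcy-22 GAAGCC: aaaccgttttttGGCTTCccacacctacgt
gcy-7 GAAGCC: gaaaataatcatGAAGCCcttctattcaat

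Few gcy- promoters held an LSY-2 summit. The authors' optimal list, which kept 6312 peaks, put a summit in the window of gcy-33 and gcy-28, 2 of 31 members (6.45%, exact 95% interval 0.791 to 21.4%), where 19.2% of all protein-coding genes had one. In the relaxed list made from both replicates pooled, which kept 30000 peaks, gcy-11 joined them, which gave 3 of 31 members (9.68%) against 34.7% of all genes. Of the relaxed lists made on single replicates, replicate 1 had a summit at 4 members (12.9%, 3.63 to 29.8%) against 35.9% of all genes, and replicate 2 at 4 members against 35.5%. Those were the same 4 genes, gcy-33, gcy-28, gcy-11 and gcy-35, so 4 of 31 members were held by both replicates, against 30.8% of all genes. When the summits of both replicates also had to lie within 200 bp of each other, gcy-35 dropped out and 3 of 31 members were left, against 28.7% of all genes. The other 27 members had no summit in the window in any of the 4 lists.

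**Figure D1:**
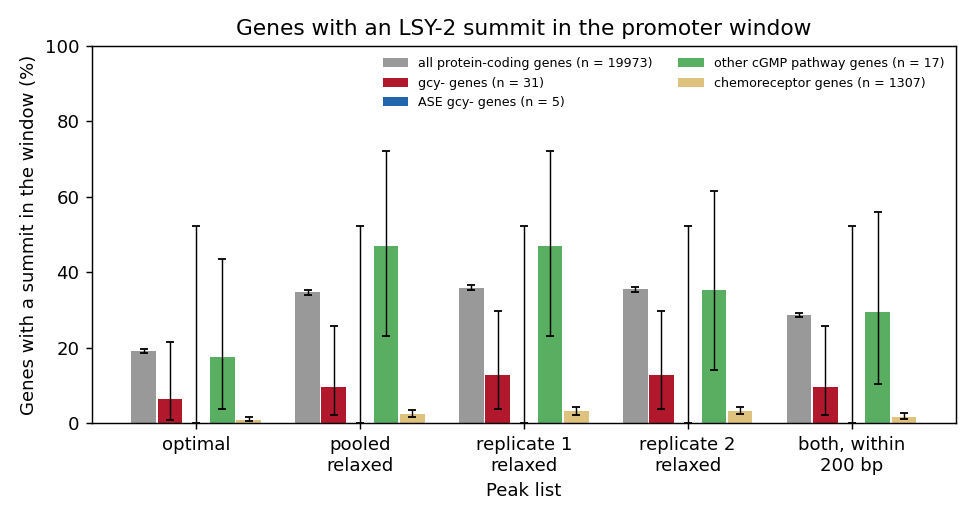
Share of genes with a summit in the promoter window (percent, bars from 0) in each of the 4 peak lists and, at the right, with summits of both replicates within 200 bp of each other; error bars are exact 95% intervals for the counting of genes. The gcy- genes lie at 6.45% in the optimal list, where all protein-coding genes lie at 19.2%, and the ASE gcy- genes lie at 0 in every list with an interval that reaches 52.2%.

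The intervals cover the counting of genes only, and they are wide with 31 members. In the optimal list the upper bound of 21.4% lies above the 19.2% of all genes, and in the pooled relaxed list the upper bound of 25.8% lies below the 34.7% of all genes. The share of genes with a summit differed between chromosomes, and 9 members lie on II, 9 on V, 6 on IV, 4 on X, 3 on I and 0 on III. With each member given the share of its own chromosome, the mean was 16.8% in the optimal list and 31.1% in the pooled relaxed list. Chromosome V, which holds gcy-6, gcy-7, gcy-14, gcy-22 and gcy-33, had a low share of its own, 11.5% of its genes in the optimal list.

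None of the 5 ASE genes had a summit in the window in any list, which allows a share of up to 52.2% by the exact interval. Outside the ASE set, 2 of 26 members had one in the optimal list, 3 of 26 in the pooled relaxed list and 4 of 26 in both replicates. With 5 genes in the ASE set these counts do not separate it from the other members. The 3 genes for guanylyl cyclases of the AFD thermosensory neurons, gcy-8, gcy-18 and gcy-23, also had none in any list, nor had gcy-9, which acts in carbon dioxide sensing in the BAG neurons. Among the soluble cyclases, 1 of 7 had one in the optimal list (gcy-33) and 2 of 7 in both replicates (gcy-33 and gcy-35). Reporter studies have placed gcy-1, gcy-3, gcy-4 and gcy-20 in ASE as well, and none of these 4 had a summit in the window in any list.

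gcy-33, a soluble cyclase of the oxygen-sensing BAG neurons, lies on the minus strand at chromosome V 11995805 to 12001797 and had the strongest promoter summit of the members. The peak covered V 12002048 to 12002257, with the summit 369 bp upstream of the 5′ end. Its score, the authors' own value per peak on a scale that is not given in the sources used here, was 237 in the pooled list (rank 1575 of 30000), 140 in replicate 1 (rank 1450) and 95.02 in replicate 2 (rank 1868). Ranks were near each other in the replicates, and the summits lay 29 bp apart. A second, weaker pooled summit lay 569 bp upstream with a score of 16.6 (rank 19500).

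The gcy-33 summit did not belong to gcy-33 alone. It lay 10 bp from the tRNA gene F57F5.t1 (chromosome V 12002176 to 12002260, plus strand), within an exon of the non-coding RNA gene F57F5.7, and in the window of the neighbouring protein-coding gene cpr-9. The replicate 2 summit lay inside the tRNA gene itself. The capitals in the gcy-33 sequence printed above are that tRNA gene. Over all 6312 optimal summits, 177 (2.80%) lay within 200 bp of one of the 612 annotated tRNA genes. Only 2 members, gcy-33 and gcy-35, have a tRNA gene in the window. Of all 119 protein-coding genes with a tRNA gene in the window, 40.3% had an optimal summit there, against 19.1% of the 19854 without. Among the 29 members with no tRNA gene in the window, 1 (gcy-28, 3.45%) had an optimal summit. Whether LSY-2 at this place bears on gcy-33, on cpr-9 or on the tRNA gene was not tested.

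gcy-28 encodes a receptor-type cyclase that acts in olfactory behaviour, and at 27743 bp (chromosome I 4481198 to 4508940, plus strand) it is the longest member. Its promoter summit lay 184 bp upstream of the 5′ end with a pooled score of 58.4, at rank 6271 of the 6312 optimal peaks, just above the lowest optimal score of 58.0. The score was 32.3 in replicate 1 (rank 6760) and 24.2 in replicate 2 (rank 7663), and the replicate summits lay 5 bp apart. A weak promoter summit was thus placed alike by both replicates. The nearest tRNA gene was 842090 bp away.

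The stronger LSY-2 summits at gcy-28 lay inside the gene. There were 4 further optimal summits in its introns. The strongest was 9343 bp downstream of the 5′ end, with a pooled score of 218 (rank 1731), 122 in replicate 1 (rank 1718) and 95.9 in replicate 2 (rank 1841). The other 3 lay at 4008, 8382 and 15506 bp, with pooled scores of 63.5, 65.1 and 67.0, and the last of them lay inside the non-coding RNA gene T01A4.6. In the pooled relaxed list 19 summits lay inside gcy-28 outside the promoter window. Shorter transcripts of gcy-28 start at 10502, 14194 and 21411 bp, and none of these starts had an optimal summit in its own window. The starts at 10502 and 14194 bp each had a summit there in the pooled relaxed list and in both replicates, and the start at 21411 bp had one in replicate 2 alone.

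**Figure D2:**
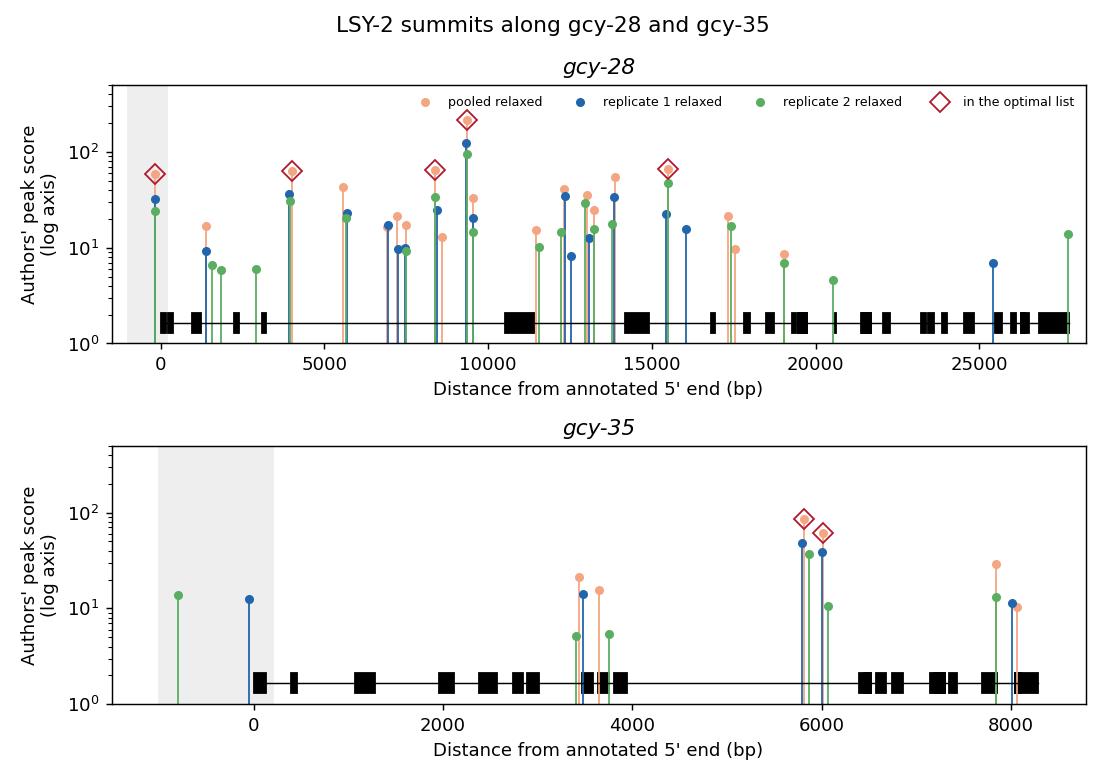
Summits along gcy-28 (top) and gcy-35 (bottom): the x axis is the distance in bp from the annotated 5′ end, the y axis the authors' peak score on a log scale, black boxes are exons, the grey band is the promoter window, and diamonds mark summits in the optimal list. The tallest point, at 9343 bp in an intron of gcy-28, has a pooled score of 218, and gcy-35 has its 2 optimal summits at 5814 and 6014 bp.

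gcy-35, a soluble cyclase known for oxygen sensing in the URX, AQR and PQR neurons (chromosome I 13325230 to 13333513, plus strand), had a summit in the promoter window in each replicate list and none there in the pooled and optimal lists. In replicate 1 a summit lay 48 bp upstream with a score of 12.6 (rank 17039), and in replicate 2 a summit lay 793 bp upstream with a score of 13.8 (rank 13608). These were different places 745 bp apart, each within 200 bp of a tRNA gene, and the nearest pooled summit lay 1045 bp upstream, outside the window. The optimal list had 2 summits in an intron, at 5814 bp (pooled score 85.2, rank 4437) and 6014 bp (61.2, rank 6019). They lay 103 bp and 26 bp from the tRNA gene T04D3.t2, and both fell in the window of T04D3.5. A shorter transcript of gcy-35 starts at 6450 bp, and its own window held an optimal summit. Thus 3 of the 8 optimal summits in the promoter windows and bodies of members, those of gcy-33 and gcy-35, lay within 200 bp of a tRNA gene.

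gcy-11, a receptor-type cyclase on chromosome X, fell just outside the optimal list. Its pooled summits lay 167 bp and 508 bp upstream with scores of 53.7 (rank 6800) and 47.7 (rank 7585), where the lowest optimal score was 58.0. Replicate 1 placed its summit 167 bp upstream with a score of 14.9 (rank 14702) and another 518 bp upstream with 17.1 (rank 12836). Replicate 2 had 37.9 (rank 4873) at 285 bp and 28.4 (rank 6503) at 504 bp upstream. Both replicates thus had summits near both places, 118 bp apart at the first and 14 bp apart at the second. At each place the summit of replicate 2 ranked higher. Weaker summits lay in the window 718 bp upstream in replicate 1 (rank 27719) and 965 bp upstream in replicate 2 (rank 26048). In an intron, both replicates had a summit, at 1256 bp (score 30.9, rank 7063) and 1242 bp (20.05, rank 9301), that had no pooled relaxed summit within 200 bp.

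Inside the genes, the members were near the background in the optimal list and below it in the pooled relaxed list. Outside the promoter window, 2 of 31 members (6.45%) had an optimal summit inside the gene, gcy-28 and gcy-35, against 6.37% of all genes. In the pooled relaxed list the count was 2 of 31 again, against 24.8% of all genes. The members are longer than other genes, with a median of 5784 bp against 2027 bp. Per length, the 31 members held 0.283 optimal summits per 10 kb, close to the 0.296 of all genes, and 1.18 pooled relaxed summits per 10 kb against 2.45. All of these lay in gcy-28 and gcy-35: the other 29 members, 176 kb in all, held 0 in both lists. Of the 198 protein-coding genes of 20 kb or more, 49.5% had an optimal summit in the body and 12.6% had at least as many as the 4 of gcy-28.

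For 29 of 31 members the nearest optimal summit lay outside the promoter window. The median distance from the 5′ end to the nearest optimal summit was 10470 bp for the members and 7271 bp for all genes, and to the nearest pooled relaxed summit 5489 bp and 3015 bp. At short range, 6 of 31 members (19.4%) had an optimal summit within 5000 bp, against 41.8% of all genes, whereas 24 of 31 (77.4%) had one within 20000 bp, against 75.2%. gcy-20 was the farthest, with its nearest optimal summit 97466 bp upstream. gcy-23 had a strong one, with a score of 1372 (rank 173) 5427 bp upstream, in the window of W08E12.7. gcy-29 had the strongest, with a score of 2494 (rank 93) 13014 bp upstream, in the window of mog-4.

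**Figure D3:**
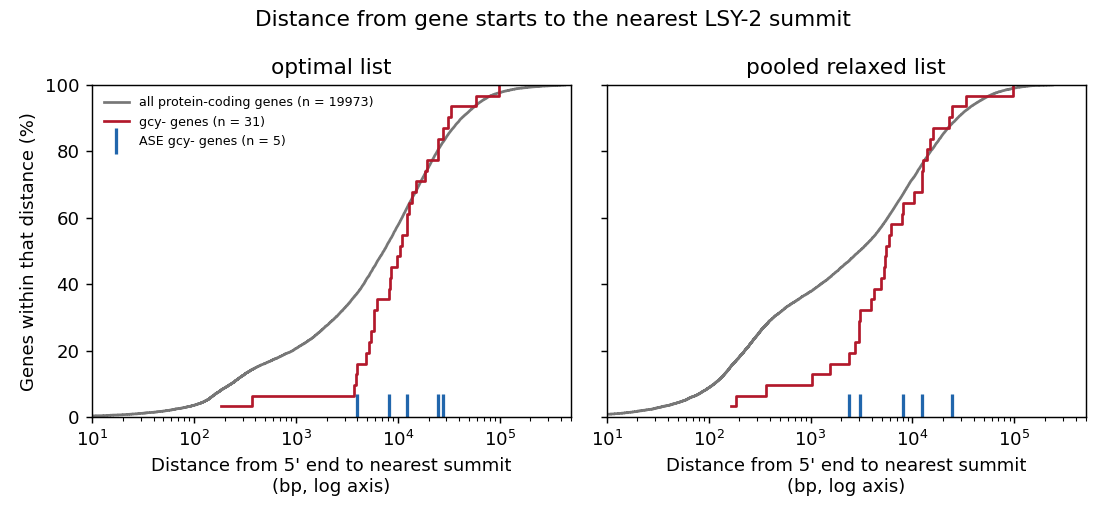
Cumulative share of genes (percent) against the distance in bp from the 5′ end to the nearest summit (log axis) in the optimal list (left) and the pooled relaxed list (right); blue ticks are the 5 ASE genes. At 5000 bp the gcy- genes have reached 19.4% in the optimal list and 41.9% in the pooled relaxed list, below the 41.8% and 57.4% of all genes.

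Among the members outside the ASE set with no summit in the window, gcy-8, gcy-9 and gcy-34 had a relaxed summit beyond the window but within 2000 bp upstream. gcy-8 had a replicate 2 summit 1518 bp upstream with a score of 80.5 (rank 2262), in the window of rps-2, a ribosomal protein gene, where the nearest pooled summit was 3014 bp upstream with a score of 57.2. gcy-9 had a replicate 2 summit 1624 bp upstream (score 47.5, rank 3894), in the window of aco-1, and the nearest pooled summit lay 2739 bp upstream (score 24.7). For gcy-8 and gcy-9 replicate 2 alone came this near to the gene. gcy-34, a soluble cyclase, had a weak summit in 2 lists, 1566 bp upstream in the pooled list (score 16.2, rank 19917) and 1531 bp upstream in replicate 1 (score 12.2, rank 17569). gcy-32, also soluble, had its nearest optimal summit 5892 bp downstream of its 5′ end, beyond its 3′ end, with a score of 422 (rank 730). gcy-1 and gcy-3, which neighbour each other on chromosome II, shared their nearest optimal summit (score 90.5, rank 4189), at 19403 bp and 9748 bp downstream of their 5′ ends.

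The ASE genes differed in where the nearest summit lay. gcy-5, on the minus strand, had it in every list on its 3′ side, at 12292 bp in the optimal list (score 239, rank 1554) and at 12267 and 12268 bp in the replicates. That summit lies in the window of vha-9 and is the nearest one of gcy-4 as well, at 4899 bp. gcy-22 had its nearest optimal summit 3963 bp upstream (score 244, rank 1501), in the windows of num-1 and sbt-1, and weaker relaxed summits at 2405 bp in the pooled list and 2257 bp in replicate 2. gcy-14 had its nearest 8149 bp upstream (score 121, rank 3213), in the window of a tRNA gene and of ZC412.5, with a replicate 1 summit at 4336 bp.

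gcy-7 had its nearest optimal summit 28043 bp upstream, a pooled relaxed one 3031 bp upstream (score 48.8, rank 7408), and one in replicate 1 at 1987 bp (score 11.96, rank 17886), the closest of any ASE gene in any list. For gcy-6 the lists disagreed. The nearest optimal and pooled summit lay 24718 bp upstream, while replicate 1 had a summit 6334 bp upstream (score 100, rank 2187) and replicate 2 one at 6336 bp (score 88.8, rank 2025), in the window of gna-1. A pair of matching, well-ranked replicate summits with no pooled summit within 200 bp was rare: of 5072 replicate 1 summits that matched replicate 2 among the strongest 6312 of each, 47 (0.927%) had none. Whether the pooled list used here holds every peak of the authors' list is not known. That limits all pooled and optimal counts and distances, among them the distances of gcy-6, gcy-8 and gcy-9 and the pooled count inside gcy-11.

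**Figure D4:**
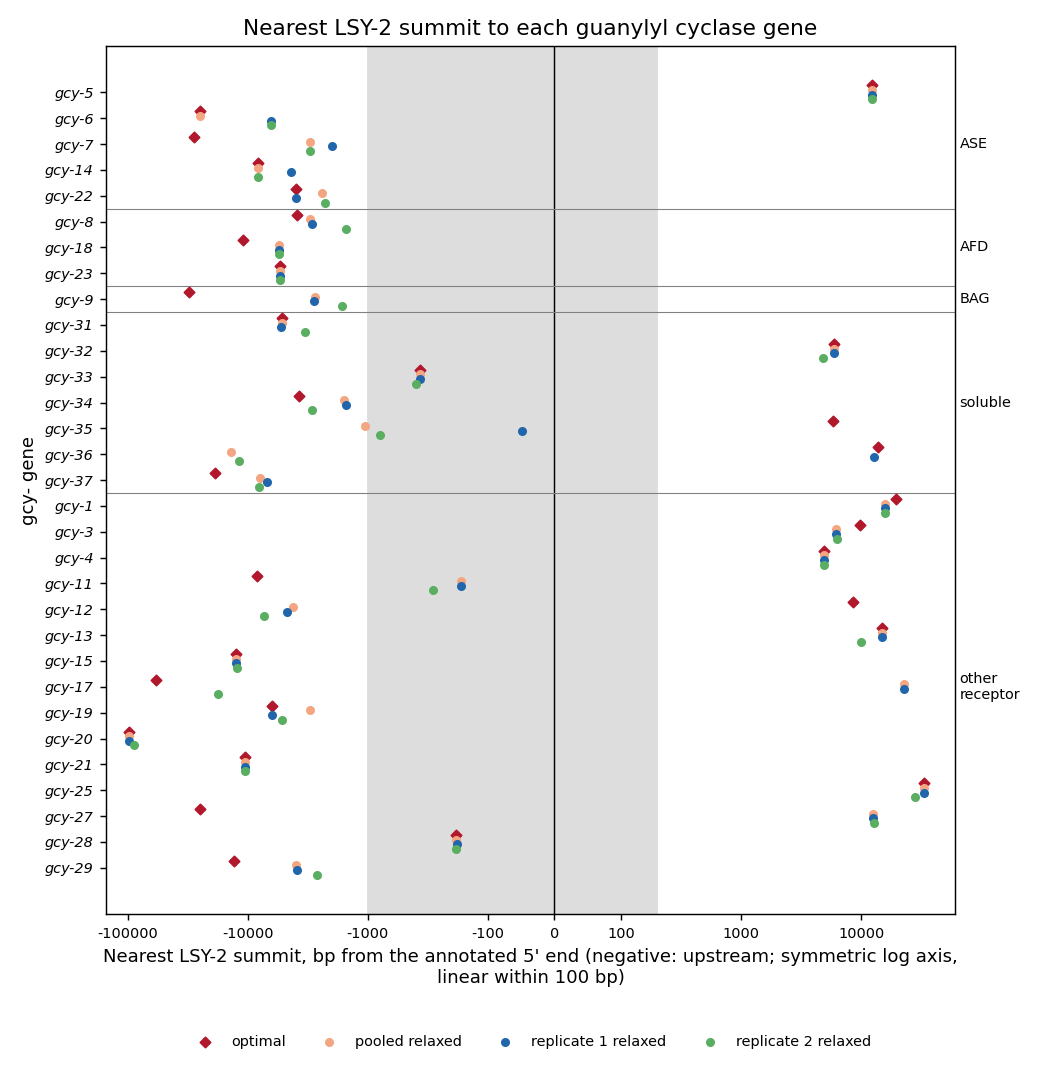
Position in bp of the nearest summit of each peak list relative to the annotated 5′ end of each of the 31 gcy- genes (symmetric log axis, negative values upstream, grey band the promoter window). In the optimal list gcy-33 and gcy-28 alone lie in the band, gcy-11 joins them in the pooled and replicate lists and gcy-35 in the replicate lists, and the 5 ASE genes at the top lie outside it in all 4 lists.

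Features of the promoters that do not depend on the peaks were described beside those of all genes. The gap to the next gene upstream had a median of 1255 bp, against 937 bp for all genes, and 496 bp for the ASE genes. It was 0 for gcy-5, whose 5′ end lies within the overlapping gene idpp-8 on the other strand. The median GC content of the window was 33.7%, against 34.97%. For 12 members (38.7%), among them gcy-5, gcy-6 and gcy-7, the annotated 5′ end is the first base of the coding sequence, against 23.5% of all genes, so the window is then placed on the start codon and not on a mapped transcription start.

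The core GAAGCC occurred in the 1201 bp window, on either strand, in 14 of 31 members (45.2%) and in 28.5% of all genes. It occurred in 4 of the 5 ASE genes, all but gcy-14, in the places printed above. Further copies lay 4 bp downstream and 907 bp upstream in gcy-5 and 164 bp upstream in gcy-22. All copies at gcy-5 lie in an exon of idpp-8. The copy 4 bp downstream also lies in the coding sequence of gcy-5. Since no ASE window held a summit in any list, none of the copies in these genes could share its window with one. That would hold for any sequence in these windows and says nothing about the core. Of the other 6-mers searched on both strands, GAGAGA occurred in 41.9% of the member windows and 50.9% of all windows, ACGCAG in 25.8% and 23.9%, and ACCGTA in 45.2% and 28.6%. GAGAGA and GAAGCC can share 2 bases where they adjoin, and a match is a description of the sequence.

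Within 50 bp of the summits, the members differed among themselves. The gcy-33 summit held none of the 4 motifs in a stretch of 53.5% GC, and the gcy-28 summit held none in a stretch of 26.7% GC. The longer gcy-33 stretch printed above, of 201 bp, does hold TCTCTC. That copy lies just beyond 50 bp from the summit and is not in capitals. Both gcy-11 summits held GAGAGA, as TCTCTC, at 38.6% and 34.7% GC. Over all optimal summits, 27.1% held GAGAGA, 14.6% ACGCAG, 6.88% ACCGTA and 2.53% GAAGCC, at a mean GC content of 44.0%.

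The genes that act with the cyclases were set beside them: 17 genes of cyclic GMP signalling, for further cyclases, channels, kinases and phosphodiesterases and including daf-25, which encodes a protein needed to bring cyclases to the cilium. In the optimal list 3 of 17 (17.6%, exact interval 3.80 to 43.4%) had a promoter summit, against 19.2% of all genes. In the pooled relaxed list 8 of 17 had one (47.1%, 22.98 to 72.2%), against 34.7% of all genes, and in both replicates 5 of 17 (29.4%, 10.3 to 55.96%), against 30.8%. The receptor-type cyclases daf-11 and odr-1, which do not carry a gcy- name, had none in any list. Nor had tax-4, which encodes a channel subunit that cyclic GMP opens, or egl-4, which encodes a cyclic GMP-dependent protein kinase. tax-2 had a weak one 378 bp upstream in the pooled relaxed list (rank 26656) and in replicate 1 (rank 19745). It had none in the window in replicate 2 or in the optimal list. The optimal summits lay at 2 phosphodiesterase genes and a channel gene. pde-2 had the strongest, 443 bp upstream with a pooled score of 194 (rank 1980), 98.0 in replicate 1 (rank 2242) and 95.7 in replicate 2 (rank 1846). pde-6 had one 321 bp upstream with 146 (rank 2681), 82.1 (rank 2683) and 71.8 (rank 2574). che-6, a channel subunit gene, had one 324 bp upstream with 59.6 (rank 6159) and 24.5 in replicate 1 (rank 8990), and replicate 2 had none in the window. The chemoreceptor genes of the G protein-coupled families, 1307 by name, had a lower share than the 31 gcy- genes in every list, 0.918% in the optimal list and 2.45% in the pooled relaxed list. Both values lie within the exact intervals of the gcy- genes, 0.791 to 21.4% and 2.04 to 25.8%. In the single-replicate lists the chemoreceptor shares were 3.14% (replicate 1) and 3.29% (replicate 2). Those lie below the lower bound of 3.63% for the gcy- genes in each of these lists.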

How the data were processed

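ChIP-seq of LSY-2 was represented by peak lists on ce11, the assembly WBcel235: an optimal list, a pooled relaxed list and a relaxed list for each replicate. Per the labels, the authors deposited for each peak a score, whose scale is not given in the sources used here, and the −log10 of a q-value, which stood at one maximum for all optimal peaks and was not used to rank. Aligner, peak caller and threshold of the irreproducible discovery rate are not given in the sources used here. Read depth is unknown. All 6312 optimal peaks were the highest-scoring pooled peaks. Each relaxed list, pooled or of a single replicate, held 30000 peaks. Lists on ce10 were not used.

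Genes came from Ensembl release 115, with RefSeq symbols for 46881 of 46890 genes, and sequences from the RefSeq genome of the same assembly. Summits were placed in windows with Python 3.11.15, numpy 2.4.6 and pandas 2.3.3, and exact Clopper-Pearson 95% intervals were computed with scipy 1.17.1. The steps were tested on simulated data. No test between gene sets was run. Full values were given for members with an optimal summit, the ASE genes, members with a pooled summit or one in both replicates, and pathway genes with an optimal summit. Other genes were named after their values were seen. Members, lists and motifs were chosen with earlier results of these data known.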

Additional observations from a re-analysis of the deposited data

How the results depend on the processing

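With 1 group, 31 members and 2 replicates, the counts rest on few genes, and no read counts were at hand to say how deep either replicate was. The ASE counts, in the pooled list and in both replicates, stayed at 0 in every alternative run. Only the wider window, the 5′ ends of any transcript and the overlap of peak intervals could have raised them. The other settings could only lower a count or reused a replicate list already at 0. The wider window took in a replicate 1 summit 1987 bp upstream of gcy-7, which neither ASE count includes. Of 60 alternative values, 51 stayed within their limit, the ASE values among them, and 9 moved. The limit was 1.5 times the count, or 1 SD for a distance or rank. That SD came from the runs with a replicate left out, so for those runs it is no independent limit. The optimal count of 2 members fell to 1 with the strongest 50% of the list (gcy-33 alone) and to 1 without summits within 200 bp of a tRNA gene (gcy-28 alone), an alternative chosen after seeing the data that also took the count in both replicates from 4 to 2. The pooled relaxed count rose from 3 to 5 with a window of 2000 bp upstream to 500 bp downstream, by gcy-34 and gcy-35. The pathway count rose from 3 to 6 with the 5′ end of any annotated transcript, by egl-4, pkg-2 and pde-4. With the strongest 50%, the median distance to an optimal summit rose from 10470 to 14357 bp. With either replicate left out there was no optimal list, so the strongest 6312 relaxed peaks of the other replicate stood in for it. Its whole relaxed list stood in for the pooled list. By these stand-ins, 1 to 2 members had a summit in the window (gcy-33 with gcy-11 in replicate 2 alone, gcy-33 in replicate 1 alone). The median best rank was 6268 in replicate 2 and 9798 in replicate 1, each within its own list, against 6271 in the pooled list. The median distance to the stand-in for the optimal list was 9748 bp in replicate 2 and 8392 bp in replicate 1. Apart from those named, the cause was not tested. No paired analysis was possible because there was 1 group.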
